A study of Arabidopsis thaliana with 24 samples.

Results

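After 24 h of osmotic stress, 52 genes of Arabidopsis thaliana stood at least 4-fold above their 0.5 h level in roots and in shoots alike. They were chosen on log2(signal + 8), averaged over the 2 arrays of a group, as probe sets that name exactly 1 gene, whose highest group mean signal is 50 or more, and whose value at 24 h exceeds that at 0.5 h by at least 2 in each tissue. These are 52 of 13513 probe sets naming 1 gene, of which 7563 reached that signal. Another 3 genes past the cutoff, LEA4-5, AT3G02480 and AT3G17520, are not described here. A further 52 probe sets passed the cutoff in roots and not in shoots, and 288 in shoots and not in roots. Because the arrays of 0.5 h and 24 h chose the genes, the difference between these times is given as a description with no test, and every test below rests on the arrays of 1, 3, 6 and 12 h, which the choice of a rise did not use. Just inside the cutoff were AT3G20300, with a 24 h difference of 2.01 in roots, SWEET4, with 2.03 in roots, and AT3G04000, with 2.005 in shoots. Just outside it were SKP2A, with 1.996 in roots, AT4G14020, with 1.96 in roots, and ChiC, with 1.956 in shoots.

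The plants were of the accession Col-0, 16 days old, and stood on rafts in Murashige and Skoog medium under 16 h days. Mannitol, a sugar alcohol that lowers the water potential of the medium, was brought to 300 mM in that medium 3 h after the lights came on. Roots and shoots were then sampled after 0.5, 1, 3, 6, 12 and 24 h, with 2 one-colour arrays for each tissue and time, 24 in all. All 12 groups had received mannitol and none is an untreated control, so each difference is one of time in mannitol, and time of day moved with it. Samples of 24 h and 0.5 h share nearly 1 clock time, whereas those of 12 h and 1 h lie at different times of the day, so that time in mannitol and time of day cannot be told apart. Whether the 2 arrays of a group stem from separate cultures is not stated, and the p-values then cover the spread between arrays alone, which may be technical.

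Plants that cannot draw water from their medium close their stomata, make abscisic acid and accumulate sugars and amino acids that hold water in the cell. Proteins that shield membranes and other proteins, such as late embryogenesis abundant proteins and small heat shock proteins, are made at the same time, and growth slows. Sugar transporters of the SWEET family move sugars across membranes down their gradient, and enzymes of amino acid breakdown feed carbon into respiration when sugar supply fails. Among the 52 genes, 13 carry a gene name in the annotation used here and 39 only a locus code. Among those without a name, AT4G33150 is listed with the synonym LKR/SDH, and AT1G53540 and AT2G29500 belong to a list of heat shock genes. They lie on all 5 chromosomes, with 12, 11, 6, 12 and 11 genes on chromosomes 1 to 5, and HSA32 and AT4G21323 are direct neighbours. No gene had a second probe set of its own among them.

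Pearson's r between the 2 arrays of a group lay between 0.979 and 0.986, and the median signal of an array between 31.4 and 48.3 array units. The summed signal of 6 named genes of green tissue was 336 to 1016 on root arrays and 12362 to 29126 on shoot arrays, so no root array reached the lowest shoot array. That of 2 genes of root tissue was 2738 to 3964 on root arrays and 216 to 1042 on shoot arrays. In the shoot samples at 24 h, replicate 1 exceeded replicate 2 for 50 of the 52 genes, by a median of 0.52 on the log2 scale, against a median of -0.04 over all tested probe sets. The ratio of the 3' to the 5' probe sets of control genes is a sign of RNA quality. For a first actin pair it was 14.4 and 18.9 on these 2 arrays, against 7.12 and 6.42 on shoot arrays of 0.5 h. A second actin pair had mean ratios of 2.57 and 2.42 at these times in shoots, and GAPDH 1.57 and 1.35. In roots at 3 h replicate 1 was the higher for 46 of the 52 genes, by a median of 0.49, and in roots at 1 h for 16, with a median of -0.25. Without shoots 24 h replicate 1 the rule would choose 46 genes, 45 of them among the 52, and without replicate 2 it would choose 55, 51 of them among the 52. The part of RNA quality in these differences was not tested.

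**Figure D1:**
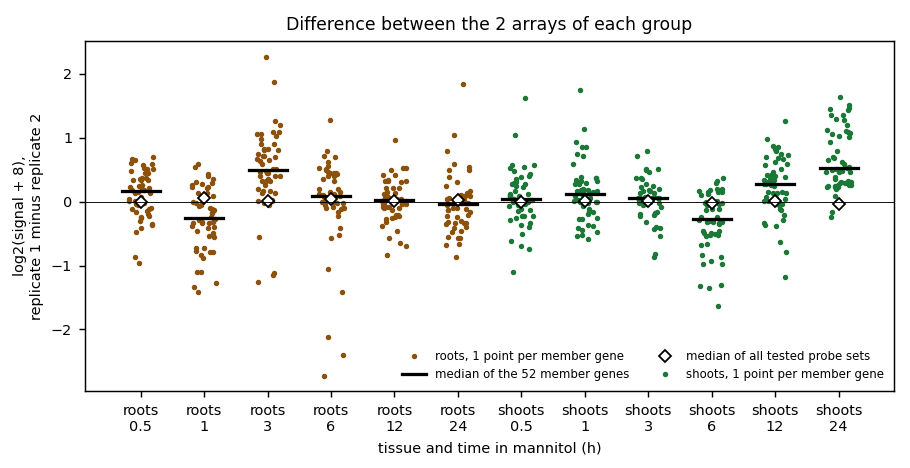
Difference between the 2 arrays of each group in log2(signal + 8), replicate 1 minus replicate 2, with 1 point for each of the 52 genes, a bar at their median and a diamond at the median of all tested probe sets; roots are on the left and shoots on the right. In shoots at 24 h 50 of the 52 points lie above 0 with a median of 0.52, and in roots at 3 h 46 do with a median of 0.49, while the diamonds stay close to 0.

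The rise to 24 h was larger in shoots for most of the genes. The difference between 24 h and 0.5 h was 2.01 to 5.43 in roots, with a median of 2.98, and 2.005 to 6.83 in shoots, with a median of 3.66. It was larger in roots for 14 genes and larger in shoots for 38. These counts rest on the arrays that chose the genes, and none was made over all probe sets. In the whole series, too, more genes passed the cutoff in shoots alone, 288, than in roots alone, 52. Both 24 h arrays exceeded both 0.5 h arrays for all 52 genes in each tissue. The rule used these same arrays and nearly fixes that outcome, so it is no evidence of a rise. The highest group mean was that of 24 h for 42 genes in roots and for 45 in shoots. In roots it was that of 3 h for COR15A, AT3G51750 and AT1G16850, that of 6 h for AT5G66780, AT5G37670 and AT2G29500, and that of 12 h for AT1G73040, AT5G50360, TMT2 and AT3G57020. In shoots it was that of 6 h for COR15A and that of 12 h for AT4G12580, AT5G50360, TMT2, AT1G16850, ATHSP22.0 and SWEET4. At 0.5 h the mean signal was below 8, the constant added before the logarithm, for 6 genes in roots and for 15 in shoots, and for these the log2 change understates the change in signal.

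The time at which a gene had passed 50% of its 24 h difference is a description too, since it rests on the same arrays. In roots this time was 1 h for 2 genes, 3 h for 25, 6 h for 21, 12 h for 1 and 24 h for 3. In shoots it was 1 h for 2 genes, 3 h for 7, 6 h for 19, 12 h for 19 and 24 h for 5. Roots reached it at an earlier sampling time than shoots for 32 genes and at the same time for 15. Shoots reached it earlier for 5, which were AT2G25625, SWEET13, AT5G23750, AT2G16890 and SWEET4. No such count was made over all probe sets. The 50% mark also scales with the 24 h difference, whose median was larger in shoots. These counts alone therefore do not show an earlier rise in roots. At 1, 3, 6, 12 and 24 h the median difference from 0.5 h was 0.30, 1.55, 2.17, 2.43 and 2.98 in roots, in that order, and -0.02, 0.83, 1.43, 2.82 and 3.66 in shoots.

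**Figure D2:**
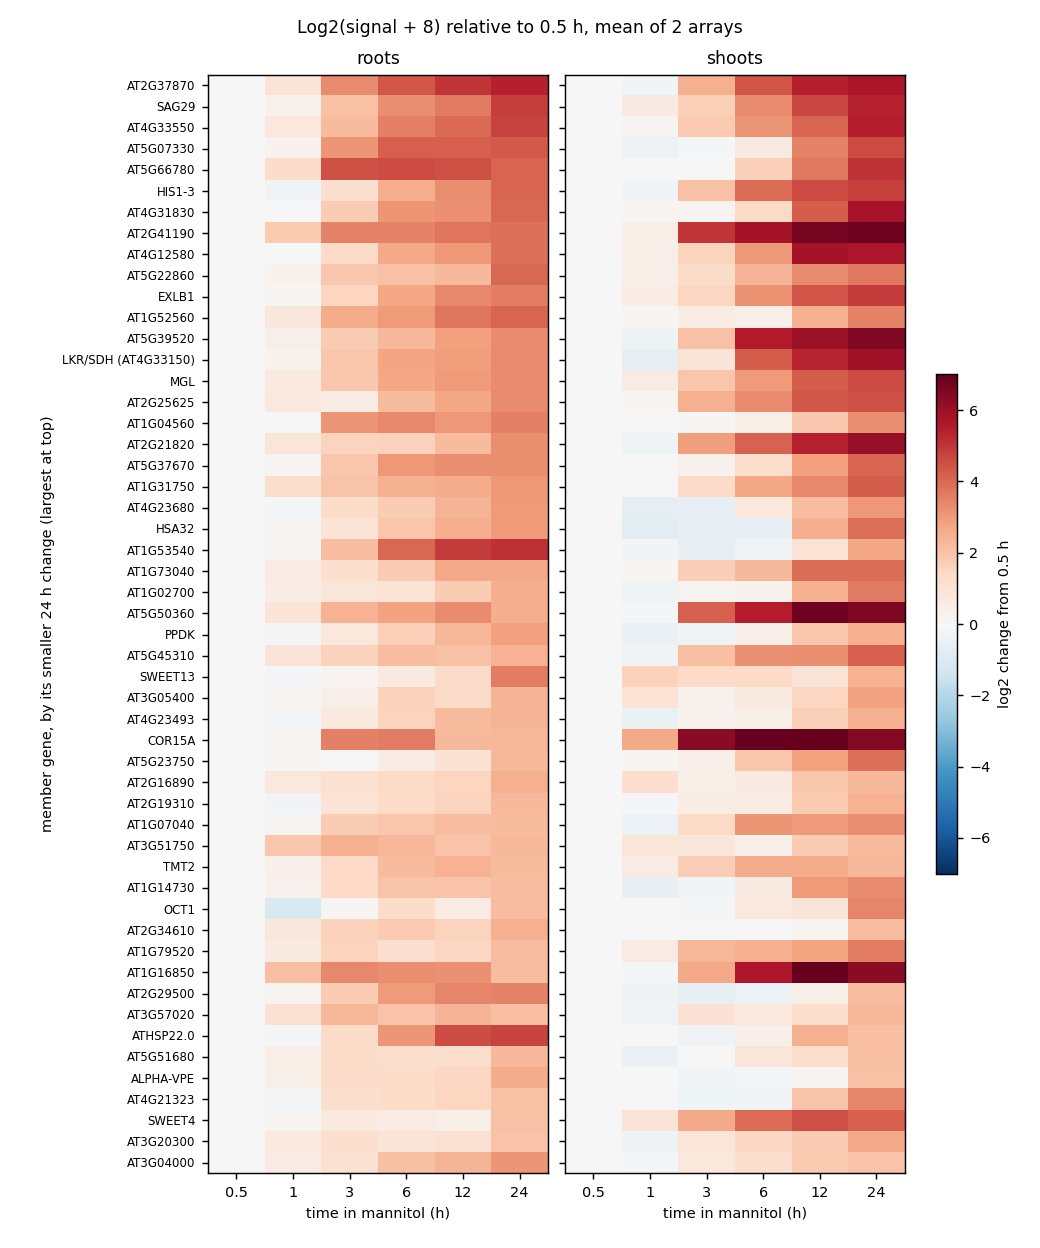
Difference of log2(signal + 8) from 0.5 h, as the mean of 2 arrays, for the 52 genes (rows, ordered by the smaller of their 2 differences at 24 h) at each time in mannitol in h (columns), in roots on the left and shoots on the right. The root panel darkens from 3 h on for most genes, at a median of 1.55, and the shoot panel mostly at 12 h, at a median of 2.82.

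Between 1 h and 12 h, on arrays that the rule did not use for the rise, most of the genes rose in each tissue. Limma called 46 of the 52 genes higher at 12 h than at 1 h in roots (88.5%), where 13.5% of all 16814 tested probe sets were called higher. In shoots it called 44 higher (84.6%), where 23.8% of all were. The median log2 difference was 2.04 over the 52 genes and -0.01 over all probe sets in roots, and 2.87 and -0.05 in shoots. None was called lower in either tissue by limma at an adjusted p of 0.05, where 15.7% of all were in roots and 27% in shoots. At an unadjusted p under 0.05 that was 0 in roots, against 21.5% of all, and 1 in shoots, SWEET13, against 30%. All 52 genes passed the filter on low signal, but on the arrays of 0.5 h and 1 h alone only 35 would have, so the other 17 passed through later arrays, where they are high. Without any filter 45 genes were called higher in roots and 44 in shoots. Over the same interval 5 of the 6 green tissue genes were called higher in roots and 6 of 6 lower in shoots. The clock gene GI, whose transcript peaks late in the day, was called lower in roots, at a difference of -0.72 ± 0.13 (SE), while it differed by 0.13 ± 0.13 in shoots. The 3' to 5' ratio of the first actin pair was 10.6 and 14.9 on shoot arrays of 12 h and 7.05 and 8.67 on those of 1 h. In roots it was 14.1 and 9.54 at 12 h and 11.2 and 11.5 at 1 h. The second actin pair had mean ratios of 2.33 at 12 h and 2.62 at 1 h in shoots, and 1.93 and 1.74 in roots. GAPDH had 1.51 at 12 h and 1.43 at 1 h in shoots, and 1.26 and 1.09 in roots. The part of green tissue, of the time of day and of RNA quality in the differences of the 52 genes was not tested, and in whole tissue fewer cells of a type and less RNA per cell cannot be told apart.

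Both tissues passed the test for 41 genes. Of all probe sets 13.5% were called higher in roots and 23.8% in shoots, but the share called in both was not counted. Roots passed and shoots did not for SWEET13, AT1G53540, AT2G29500, OCT1 and ALPHA-VPE. Shoots passed and roots did not for AT3G51750, SWEET4 and AT3G20300, and neither tissue passed for AT3G05400, AT2G16890 and AT2G34610. The root calls held without each array in turn for 35 of the 46 genes, and the shoot calls for 43 of the 44, the exception being AT3G51750.

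Roots had most of their calls in the first step, whereas shoots had calls in all 3 steps. The same held over all probe sets, so it is not particular to these genes. The genes past the cutoff in roots alone gave 31, 2 and 0 calls over the root steps. From 1 h to 3 h limma called 31 genes higher in roots, where 4.8% of all probe sets were, and 26 in shoots, where 13.4% were. From 3 h to 6 h it called 3 higher in roots, LKR/SDH, HIS1-3 and AT4G23493, against a background of 0.137%, and 24 in shoots, against 7.32%. From 6 h to 12 h it called 0 higher in roots, where 0.0178% of all were called, and 30 in shoots, where 6.07% were. At an unadjusted p under 0.05 the root counts were 23 for 3 h to 6 h, against 5.81% of all probe sets, and 11 for 6 h to 12 h, against 3.91%. None of the 52 genes was called lower in any of the 6 steps, where 5.16%, 0.0535% and 0.0119% of all probe sets were over the 3 root steps and 16.6%, 7.08% and 6.42% over those of shoots. At an unadjusted p under 0.05 that was 1 in roots from 6 h to 12 h, COR15A, and 0 in the other 5 steps. All probe sets gave 13.2%, 5.36% and 3.78% over the root steps and 22.7%, 14% and 12.3% over those of shoots. The largest of the 3 steps ended at 3 h for 39 genes, at 6 h for 10 and at 12 h for 3 in roots, and at 3 h for 17, at 6 h for 11 and at 12 h for 24 in shoots.

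Fewer calls held in the single steps than over the whole interval. Without each array in turn, 16 of the 31 root calls from 1 h to 3 h held and 0 of the 3 from 3 h to 6 h, and in shoots 20 of 26, 10 of 24 and 16 of 30 held over the 3 steps. Single arrays also moved several counts by more than 1.5 times. The root count from 1 h to 3 h was 19 without roots 1 h replicate 1 and 19 without roots 3 h replicate 1. The 3 root calls from 3 h to 6 h became 0 without roots 3 h replicate 2, 1 without roots 6 h replicate 2 and 7 without roots 3 h replicate 1. Without roots 6 h replicate 1 there were 4, none of them among the 3. In shoots the count from 3 h to 6 h was 15 without shoots 3 h replicate 2 and 12 without shoots 6 h replicate 2, and that from 6 h to 12 h was 17 without shoots 6 h replicate 1 and 18 without shoots 12 h replicate 1.

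**Figure D3:**
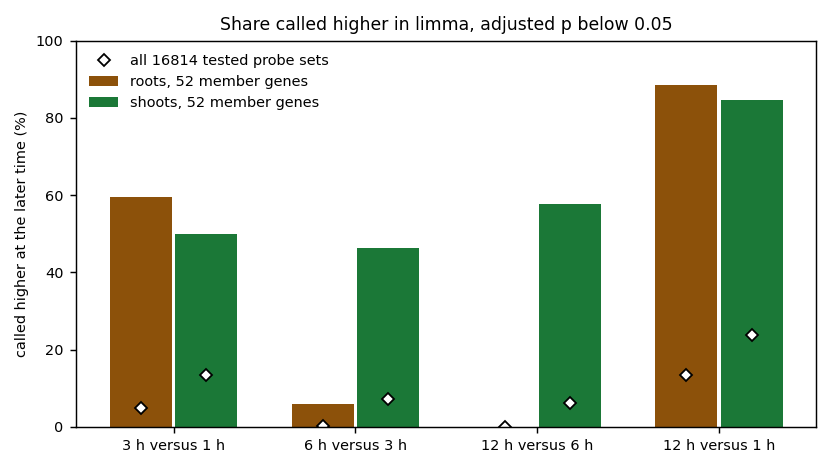
Share of the 52 genes (bars, in %) that limma called higher at the later time at an adjusted p of 0.05, for roots and shoots side by side in each of 3 steps and over the whole interval from 1 h to 12 h; diamonds give the share among all 16814 tested probe sets. The root bars come to 31, 3 and 0 genes over the 3 steps and the shoot bars to 26, 24 and 30.

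Sugar transporters were among the named genes, with 3 of the SWEET family and 1 of the vacuole. Genes known by locus code were not sorted by family, so the 52 may hold others. SAG29, also listed as SWEET15, is a sugar transporter known from senescing leaves. Its signal on the 2 root arrays was 15.1 and 21.9 at 0.5 h, 27.7 and 21.1 at 1 h, 132 and 77.6 at 3 h, 307 and 196 at 6 h, 361 and 287 at 12 h, and 732 and 745 at 24 h. Its signal in shoots was 126 and 57.0 at 0.5 h, 129 and 141 at 1 h, 212 and 393 at 3 h, 1008 and 807 at 6 h, 2742 and 2104 at 12 h, and 3858 and 3817 at 24 h. Both arrays of every time from 3 h on lay above both arrays of 0.5 h and 1 h in each tissue. Between 1 h and 12 h it rose by 3.36 ± 0.32 (SE; adjusted p = 1.7e-06) in roots and by 4.08 ± 0.32 (adjusted p = 1.6e-08) in shoots.

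SWEET4, of the same family, gave a root signal of 10.4 and 13.6 at 0.5 h, 16.7 and 12.5 at 1 h, 38.0 and 14.6 at 3 h, 25.7 and 17.1 at 6 h, 18.3 and 18.6 at 12 h, and 72.7 and 74.2 at 24 h. Its shoot signal was 18.3 and 16.8 at 0.5 h, 51.5 and 31.7 at 1 h, 128 and 175 at 3 h, 309 and 447 at 6 h, 650.4 and 525 at 12 h, and 612 and 351 at 24 h. The root arrays of 1 h to 12 h lay between 12.5 and 38.0 and only those of 24 h stood higher, whereas the shoot arrays of 3 h and later all exceeded those of 0.5 h and 1 h. It rose by 3.61 ± 0.30 in shoots (adjusted p = 3.7e-08) and its root difference was 0.23 ± 0.30 (adjusted p = 0.6). The change was smaller in roots, at -3.37 ± 0.43 for roots minus shoots (adjusted p = 1.6e-05), the direction in which all such differences are given. SWEET13, which exports sucrose from leaf cells, took the other course, with a root signal of 31.9 and 35.5 at 0.5 h, 37.9 and 26.7 at 1 h, 45.7 and 32.7 at 3 h, 60.4 and 51.3 at 6 h, 107 and 91.1 at 12 h, and 493 and 503 at 24 h. The shoot arrays gave 7.67 and 25.5 at 0.5 h, 55.0 and 67.7 at 1 h, 54.7 and 49.4 at 3 h, 36.5 and 73.0 at 6 h, 36.8 and 32.4 at 12 h, and 107 and 121 at 24 h. The root arrays of 24 h lay far above the earlier ones, and the shoot arrays of 1 h to 12 h lay between 32.4 and 73.0. Between 1 h and 12 h SWEET13 rose by 1.42 ± 0.29 in roots (adjusted p = 0.0015), while its shoot difference was -0.70 ± 0.29 (adjusted p = 0.051). Its change was larger in roots by 2.12 ± 0.41 (adjusted p = 0.0007).

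TMT2, which loads glucose and fructose into the vacuole, had nearly the same course in both tissues. Its root signal was 62.7 and 48.0 at 0.5 h, 71.3 and 75.3 at 1 h, 186 and 135 at 3 h, 300.4 and 262 at 6 h, 346 and 330.4 at 12 h, and 282 and 277 at 24 h. Its shoot arrays gave 57.6 and 52.3 at 0.5 h, 70.8 and 101 at 1 h, 188 and 214 at 3 h, 359 and 374 at 6 h, 370.0 and 366 at 12 h, and 335 and 280.3 at 24 h. From 3 h on every array of either tissue exceeded every array of 0.5 h and 1 h. It rose between 1 h and 12 h by 2.09 ± 0.17 in roots (adjusted p = 2.8e-07) and by 2.02 ± 0.17 in shoots (adjusted p = 2.7e-08), and the difference between these changes was 0.07 ± 0.23 (adjusted p = 0.85).

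Of 4 enzymes grouped here by their known role, LKR/SDH, MGL and PPDK rose in both tissues and ALPHA-VPE, a protease, in roots. The other genes known by locus code were not sorted this way, so the 52 may hold further enzymes. The change was called smaller in roots for LKR/SDH and MGL. AT4G33150, listed as LKR/SDH, is the bifunctional enzyme that begins the breakdown of lysine. The root arrays gave 106 and 123 at 0.5 h, 124 and 153 at 1 h, 548 and 392 at 3 h, 813 and 822 at 6 h, 918 and 946 at 12 h, and 1264 and 1150.1 at 24 h. In shoots it gave 53.6 and 67.1 at 0.5 h, 38.5 and 33.4 at 1 h, 109 and 129.5 at 3 h, 1381 and 1220.3 at 6 h, 2814 and 2663 at 12 h, and 4514 and 3773 at 24 h. The shoot arrays stood below the root arrays up to 3 h and above them from 6 h on. LKR/SDH (AT4G33150) rose by 2.69 ± 0.16 in roots (adjusted p = 1.8e-08) and by 5.97 ± 0.16 in shoots (adjusted p = 5.1e-14). Over this interval the change was smaller in roots, at -3.28 ± 0.22 (adjusted p = 3e-08). MGL, methionine gamma-lyase, which splits methionine, gave 39.6 and 58.1 at 0.5 h, 67.2 and 95.9 at 1 h, 199.9 and 197 at 3 h, 332 and 389 at 6 h, 394 and 491 at 12 h, and 549 and 532 at 24 h in roots. In shoots it was 27.9 and 21.5 at 0.5 h, 42.4 and 40.2 at 1 h, 123 and 108 at 3 h, 239.9 and 265 at 6 h, 716 and 533 at 12 h, and 936 and 619 at 24 h. Its arrays lay higher at each later time in both tissues up to 12 h. It rose by 2.34 ± 0.21 in roots (adjusted p = 8.5e-07) and by 3.67 ± 0.21 in shoots (adjusted p = 3.9e-10). Its change over this interval was smaller in roots, at -1.32 ± 0.30 (adjusted p = 0.0024).

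PPDK, pyruvate orthophosphate dikinase, which interconverts pyruvate and phosphoenolpyruvate, had a root signal of 48.9 and 39.7 at 0.5 h, 36.6 and 42.2 at 1 h, 84.5 and 74.3 at 3 h, 159 and 150.5 at 6 h, 195 and 323 at 12 h, and 387 and 362 at 24 h. The shoot signal was 317 and 535 at 0.5 h, 319 and 279 at 1 h, 334 and 335 at 3 h, 487 and 617 at 6 h, 1670.0 and 1510.0 at 12 h, and 2442 and 2306 at 24 h. Shoot arrays exceeded root arrays at every time. PPDK rose by 2.45 ± 0.21 in roots (adjusted p = 7.5e-07) and by 2.38 ± 0.21 in shoots (adjusted p = 7.8e-08), changes that differed by 0.07 ± 0.30 (adjusted p = 0.88). ALPHA-VPE, a vacuolar processing enzyme that cuts proteins in the vacuole, gave 43.4 and 28.1 at 0.5 h, 36.0 and 67.9 at 1 h, 109 and 89.5 at 3 h, 96.7 and 97.3 at 6 h, 101 and 121 at 12 h, and 284 and 229 at 24 h in roots. Its shoot signal was 6.53 and 6.04 at 0.5 h, 11.6 and 2.199 at 1 h, 2.49 and 7.31 at 3 h, 5.31 and 5.48 at 6 h, 6.37 and 10.7 at 12 h, and 77.4 and 34.1 at 24 h. In shoots its arrays of 0.5 h to 12 h stayed at or below 11.6 and only those of 24 h stood higher. Its root rise of 1.04 ± 0.34 between 1 h and 12 h (adjusted p = 0.028) did not pass without roots 1 h replicate 1, when it was 0.64, nor without either root array of 12 h, nor with 1 added to the signal in place of 8, and its shoot difference was 0.22 ± 0.34 (adjusted p = 0.63).

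Of the 4 genes whose change between 1 h and 12 h was called larger in roots than in shoots, 3 belong to the list of heat shock genes. That list names 15 genes, of which 4 were tested. The other genes known by locus code were not sorted by family, so these 3 do not stand for all heat shock genes among the 52. ATHSP22.0 encodes a small heat shock protein, a chaperone that binds unfolding proteins. In roots it gave 9.73 and 13.0 at 0.5 h, 11.4 and 8.77 at 1 h, 32.9 and 52.2 at 3 h, 104 and 225 at 6 h, 435 and 468 at 12 h, and 416 and 622 at 24 h. In shoots it was 20.1 and 11.4 at 0.5 h, 18.5 and 12.2 at 1 h, 15.7 and 8.61 at 3 h, 21.3 and 22.2 at 6 h, 138 and 113 at 12 h, and 140.2 and 60.4 at 24 h. Root arrays exceeded shoot arrays at 3 h, 6 h, 12 h and 24 h. It rose by 4.67 ± 0.35 in roots (adjusted p = 1.7e-07) and by 2.52 ± 0.35 in shoots (adjusted p = 1.1e-05). The change was larger in roots by 2.15 ± 0.50 (adjusted p = 0.0031).

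AT1G53540 gave 10.9 and 15.3 at 0.5 h, 14.4 and 13.5 at 1 h, 53.2 and 138 at 3 h, 142 and 781 at 6 h, 469 and 841 at 12 h, and 640.4 and 790.5 at 24 h in roots. The shoot arrays gave 12.9 and 17.0 at 0.5 h, 19.1 and 6.91 at 1 h, 7.88 and 7.20 at 3 h, 12.6 and 10.4 at 6 h, 45.2 and 29.2 at 12 h, and 218 and 90.3 at 24 h. At 6 h its root replicates lay 5.50 times apart in signal, with replicate 2 the higher, and its mean shoot signal stayed below that of 0.5 h up to 6 h. It rose by 4.86 ± 0.57 in roots (adjusted p = 1.2e-05) and its shoot difference was 1.15 ± 0.57 (adjusted p = 0.1). Its change was larger in roots by 3.71 ± 0.80 (adjusted p = 0.0019). AT2G29500 had a root signal of 29.1 and 26.0 at 0.5 h, 28.0 and 37.2 at 1 h, 73.5 and 168 at 3 h, 103 and 722 at 6 h, 365 and 388 at 12 h, and 309.7 and 464 at 24 h. Its shoot signal was 12.5 and 25.1 at 0.5 h, 19.3 and 7.21 at 1 h, 10.1 and 8.49 at 3 h, 9.82 and 14.3 at 6 h, 24.8 and 30.03 at 12 h, and 119 and 95.1 at 24 h. Its root replicates were 7.02 times apart at 6 h, again with replicate 2 the higher. It rose by 3.25 ± 0.56 in roots (adjusted p = 0.00044) and differed by 0.79 ± 0.56 in shoots (adjusted p = 0.26). The larger change in roots, 2.46 ± 0.79 (adjusted p = 0.025), did not pass without shoots 1 h replicate 1, at 2.04, nor without any of 4 further arrays.

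HSA32, which Arabidopsis needs to keep the tolerance gained from an earlier heat stress, differed from these in its shoots. Its root arrays gave 34.6 and 34.3 at 0.5 h, 36.0 and 47.0 at 1 h, 73.1 and 74.7 at 3 h, 125 and 189 at 6 h, 230.4 and 245 at 12 h, and 263 and 391 at 24 h. The shoot arrays gave 48.0 and 47.9 at 0.5 h, 25.7 and 24.6 at 1 h, 32.3 and 26.4 at 3 h, 27.5 and 30.3 at 6 h, 507 and 206 at 12 h, and 1355 and 491 at 24 h. The shoot arrays of 1 h to 6 h all lay below those of 0.5 h and the arrays of 12 h above all of them. HSA32 rose by 2.32 ± 0.37 in roots (adjusted p = 0.00024) and by 3.32 ± 0.37 in shoots (adjusted p = 1e-06), and from 6 h to 12 h in shoots by 3.17 ± 0.37 (adjusted p = 2.3e-05). Its neighbour AT4G21323 gave 5.13 and 1.77 at 0.5 h, 1.14 and 5.72 at 1 h, 1.02 and 1.15 at 3 h, 2.53 and 1.53 at 6 h, 51.2 and 25.3 at 12 h, and 169 and 75.7 at 24 h in shoots, and rose there from 6 h to 12 h by 2.15 ± 0.34 (adjusted p = 0.00043). In roots AT4G21323 gave 10.9 and 3.95 at 0.5 h, 3.70 and 7.65 at 1 h, 28.4 and 21.1 at 3 h, 23.3 and 33.5 at 6 h, 34.4 and 33.9 at 12 h, and 47.2 and 61.8 at 24 h, a rise of 1.64 ± 0.34 between 1 h and 12 h (adjusted p = 0.0019). The shoot arrays of AT4G21323 stayed at or below 5.72 up to 6 h.

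COR15A, which protects chloroplast membranes during freezing and drying, was low in roots and bright in shoots. Its root signal was 6.89 and 1.82 at 0.5 h, 1.35 and 11.996 at 1 h, 262 and 65.6 at 3 h, 137 and 142 at 6 h, 42.3 and 57.3 at 12 h, and 57.3 and 47.3 at 24 h. Its shoot arrays gave 28.3 and 24.5 at 0.5 h, 385 and 109 at 1 h, 2743 and 2632 at 3 h, 6388 and 5219.6 at 6 h, 4283 and 4416 at 12 h, and 3498 and 2528 at 24 h. In shoots both arrays of 1 h already stood above those of 0.5 h and the highest came at 6 h, whereas in roots the highest came at 3 h and the arrays of 12 h and 24 h lay below those of 3 h. It rose by 2.07 ± 0.51 in roots (adjusted p = 0.0058) and by 4.34 ± 0.51 in shoots (adjusted p = 1.6e-06). Over this interval the change was smaller in roots, at -2.28 ± 0.72 (adjusted p = 0.022). The root call was lost without roots 1 h replicate 1, at 1.52, and without roots 12 h replicate 2, at 1.88, and the difference between the tissues was lost without shoots 1 h replicate 2, at -1.41, and without each of 4 further arrays. With 1 added to the signal in place of 8 that difference was -1.22 (adjusted p = 0.38), and with 32 added the root difference was 1.09, which did not pass.

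HIS1-3 encodes a variant of the linker histone H1 that plants make under drought. The root arrays gave 49.3 and 40.6 at 0.5 h, 38.9 and 35.9 at 1 h, 146 and 74.5 at 3 h, 291 and 312 at 6 h, 504 and 488 at 12 h, and 864 and 901 at 24 h. In shoots it gave 18.7 and 18.4 at 0.5 h, 14.6 and 15.1 at 1 h, 136 and 75.1 at 3 h, 379 and 412 at 6 h, 707 and 557 at 12 h, and 771 and 655 at 24 h. From 3 h on the arrays of each later time up to 12 h exceeded all earlier ones in both tissues. It rose by 3.47 ± 0.24 in roots (adjusted p = 6.2e-08) and by 4.80 ± 0.24 in shoots (adjusted p = 7.9e-11). Its change over this interval was smaller in roots, at -1.32 ± 0.34 (adjusted p = 0.0062). EXLB1, an expansin-like protein of the cell wall, gave 121 and 134 at 0.5 h, 168 and 123 at 1 h, 456 and 318 at 3 h, 1015 and 732 at 6 h, 1294 and 1519 at 12 h, and 1868 and 1427 at 24 h in roots. The shoot signal was 55.3 and 34.6 at 0.5 h, 73.6 and 58.6 at 1 h, 156 and 120.3 at 3 h, 284 and 734 at 6 h, 1219 and 1003 at 12 h, and 1735 and 1390.5 at 24 h. It rose by 3.22 ± 0.32 in roots (adjusted p = 3e-06) and by 3.92 ± 0.32 in shoots (adjusted p = 3e-08), and these changes differed by -0.70 ± 0.46 (adjusted p = 0.26).

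OCT1, a transporter of carnitine and other organic cations, was low at first. In roots it gave 28.2 and 23.1 at 0.5 h, 9.96 and 6.497 at 1 h, 37.8 and 19.4 at 3 h, 122 and 45.4 at 6 h, 45.1 and 40.8 at 12 h, and 173 and 120.2 at 24 h. In shoots it was 1.04 and 0.906 at 0.5 h, 1.32 and 0.415 at 1 h, 0.736 and 0.411 at 3 h, 0.518 and 18.4 at 6 h, 6.99 and 11.0 at 12 h, and 150.1 and 49.6 at 24 h. In shoots 1 array of 6 h and both of 12 h and 24 h lay at 6.99 or above, and the rest lay at or below 1.32. Between 1 h and 12 h it rose by 1.66 ± 0.48 in roots (adjusted p = 0.016), a call lost without roots 1 h replicate 2 or either root array of 12 h, and its shoot difference was 0.93 ± 0.48 (adjusted p = 0.12).

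**Figure D4:**
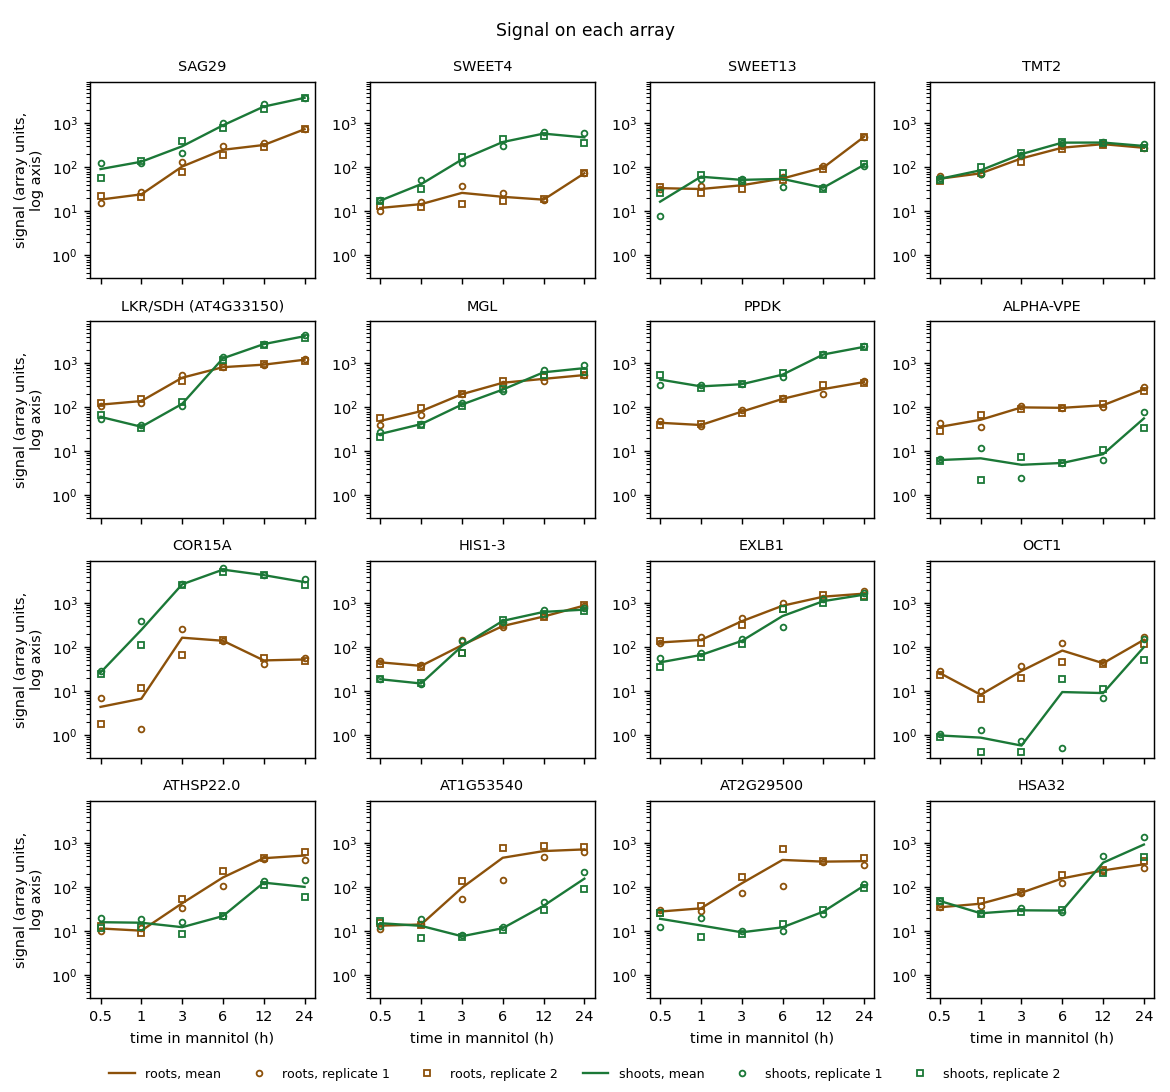
Signal on each array, in array units on a log axis, against time in mannitol in h for the 16 genes with a known role, by tissue; circles are replicate 1, squares replicate 2, and lines join the means of 2 arrays. SWEET4 and COR15A stand higher in shoots at every time, ATHSP22.0, AT1G53540 and AT2G29500 higher in roots from 3 h on, and TMT2 runs together in both.

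The other 36 genes are known here by locus code, and most rose in both tissues. Between 1 h and 12 h limma called 31 of the 36 higher in roots, against 13.5% of all probe sets, with differences of 0.09 to 4.02 and a median of 1.87 over the 36. In shoots it called 33 higher, against 23.8%, with 0.09 to 7.07 and a median of 2.87. The change was called smaller in roots for 17 of them, against 15.6%, and larger for 0, against 16.1%. At an unadjusted p under 0.05 it was larger for 1, AT1G04560, against 21.1%. Those with the largest 24 h difference in both tissues, or the largest difference between the tissues, are given with their arrays.

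AT2G37870 had the largest of the smaller 24 h differences, 5.43 in roots and 5.72 in shoots. Its root arrays gave 35.9 and 33.9 at 0.5 h, 57.6 and 101 at 1 h, 657 and 269.9 at 3 h, 975 and 757 at 6 h, 1348 and 1380.3 at 12 h, and 1779 and 1903 at 24 h. Its shoot signal was 33.6 and 40.6 at 0.5 h, 35.9 and 26.0 at 1 h, 241 and 257 at 3 h, 861 and 1019.8 at 6 h, 2121 and 1797 at 12 h, and 2534 and 2201 at 24 h. Every time from 3 h to 24 h stood above all earlier ones in both tissues. It rose by 4.02 ± 0.29 in roots (adjusted p = 8.7e-08) and by 5.66 ± 0.29 in shoots (adjusted p = 1e-10). The change was smaller in roots, at -1.64 ± 0.41 (adjusted p = 0.0051). AT4G33550 gave 98.8 and 86.0 at 0.5 h, 120.2 and 211 at 1 h, 568 and 358 at 3 h, 1457 and 882 at 6 h, 1545 and 1522 at 12 h, and 2597 and 2781 at 24 h in roots. The shoot arrays gave 19.8 and 18.2 at 0.5 h, 26.1 and 19.0 at 1 h, 90.9 and 86.7 at 3 h, 195 and 251 at 6 h, 567 and 345 at 12 h, and 1317 and 1102 at 24 h. Root arrays exceeded shoot arrays at every time, and the changes between 1 h and 12 h, 3.201 ± 0.28 in roots and 3.89 ± 0.28 in shoots, differed by -0.69 ± 0.39 (adjusted p = 0.19).

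AT5G66780, AT5G07330 and AT1G04560 changed more in roots than in shoots between 1 h and 3 h. AT5G66780 gave 8.07 and 8.50 at 0.5 h, 27.9 and 36.8 at 1 h, 529 and 225 at 3 h, 437 and 328 at 6 h, 409 and 306 at 12 h, and 257 and 277 at 24 h in roots. Its shoot arrays gave 3.197 and 3.48 at 0.5 h, 7.01 and 1.11 at 1 h, 4.75 and 2.80 at 3 h, 22.1 and 34.7 at 6 h, 186 and 104 at 12 h, and 569 and 230.1 at 24 h. The root arrays of 3 h to 24 h all lay at 225 or above, while the shoot arrays stayed at or below 7.01 up to 3 h. The change from 1 h to 3 h was larger in roots by 3.14 ± 0.55 (adjusted p = 0.0012) and that from 3 h to 12 h smaller, at -3.62 ± 0.55 (adjusted p = 0.00033). AT5G07330 gave 9.25 and 14.1 at 0.5 h, 15.2 and 15.3 at 1 h, 187 and 133 at 3 h, 359 and 338 at 6 h, 412 and 285 at 12 h, and 328 and 419.9 at 24 h in roots. Its shoot arrays gave 6.75 and 9.16 at 0.5 h, 3.80 and 4.40 at 1 h, 10.7 and 3.35 at 3 h, 17.0 and 17.1 at 6 h, 233 and 124 at 12 h, and 537 and 255 at 24 h. The lower root array of 3 h had 8.69 times the signal of the higher one of 1 h, and its shoot arrays stayed at or below 17.1 up to 6 h. Its change was larger in roots by 2.57 ± 0.45 from 1 h to 3 h (adjusted p = 0.0012) and smaller, at -2.53 ± 0.45 from 3 h to 12 h (adjusted p = 0.0011).

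AT4G31830 gave 2.33 and 0.925 at 0.5 h, 0.344 and 3.03 at 1 h, 39.0 and 15.7 at 3 h, 83.5 and 65.5 at 6 h, 113 and 54.0 at 12 h, and 142 and 157 at 24 h in roots. In shoots it gave 1.85 and 1.26 at 0.5 h, 1.01 and 4.24 at 1 h, 1.94 and 4.41 at 3 h, 14.2 and 19.8 at 6 h, 220.2 and 134 at 12 h, and 744 and 340.2 at 24 h. It rose by 3.18 ± 0.37 in roots and by 4.099 ± 0.37 in shoots between 1 h and 12 h, and its change from 3 h to 12 h was smaller in roots, at -2.64 ± 0.53 (adjusted p = 0.0028). From 1 h to 3 h its change was larger in roots by 1.72 ± 0.53 (adjusted p = 0.036), a call lost without each of 6 of the 8 arrays in turn, with 32 added to the signal, without the filter and after median scaling. AT1G04560 gave 15.8 and 9.18 at 0.5 h, 11.6 and 13.2 at 1 h, 177 and 157 at 3 h, 263 and 158 at 6 h, 176 and 139 at 12 h, and 269 and 182 at 24 h in roots. The shoot signal was 13.3 and 6.83 at 0.5 h, 11.5 and 7.60 at 1 h, 10.8 and 10.5 at 3 h, 12.2 and 21.2 at 6 h, 71.4 and 44.6 at 12 h, and 279 and 92.8 at 24 h. The shoot arrays up to 6 h did not exceed 21.2 and those of the roots from 3 h on did not fall below 139. The change from 1 h to 3 h was larger in roots by 3.01 ± 0.53 (adjusted p = 0.0012), while over 1 h to 12 h the changes, 3.01 ± 0.37 in roots and 1.89 ± 0.37 in shoots, differed by 1.12 ± 0.53 (adjusted p = 0.12).

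AT1G16850, AT5G50360, AT2G21820, AT2G41190 and AT5G39520 had the 5 largest differences between the tissues, all with the smaller change in roots. AT1G16850 gave 48.2 and 29.99 at 0.5 h, 114 and 317 at 1 h, 582 and 384 at 3 h, 426 and 430.3 at 6 h, 417 and 409 at 12 h, and 153 and 247 at 24 h in roots. In shoots it was 2.1002 and 2.17 at 0.5 h, 1.66 and 1.67 at 1 h, 64.4 and 48.3 at 3 h, 533 and 488 at 6 h, 1574 and 1059 at 12 h, and 1159.6 and 548 at 24 h. Root arrays exceeded the 0.5 h level from 1 h on and were lower at 24 h than at 3 h, while the shoot arrays stayed at or below 2.17 up to 1 h. It rose by 7.07 ± 0.38 in shoots (adjusted p = 1.9e-10). Its change was smaller in roots, at -5.99 ± 0.54 (adjusted p = 5.2e-07). Its root rise of 1.08 ± 0.38 (adjusted p = 0.04) was 0.37 without roots 1 h replicate 1, and 1.79 without roots 1 h replicate 2, and the call was lost without the first of these or either root array of 12 h.

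AT5G50360 gave 22.2 and 15.3 at 0.5 h, 37.8 and 47.2 at 1 h, 175 and 104 at 3 h, 206 and 149 at 6 h, 283 and 224 at 12 h, and 125 and 167 at 24 h in roots. Its shoot signal was 2.78 and 0.951 at 0.5 h, 1.45 and 0.866 at 1 h, 174 and 173 at 3 h, 385 and 483 at 6 h, 1144 and 1040.5 at 12 h, and 1451 and 561 at 24 h. Its shoot arrays were at or below 2.78 up to 1 h and at 173 or above from 3 h on. It rose by 2.37 ± 0.32 in roots (adjusted p = 5.2e-05) and by 6.91 ± 0.32 in shoots (adjusted p = 3.4e-11). Over this interval the change was smaller in roots, at -4.54 ± 0.45 (adjusted p = 1.2e-06). AT2G21820 gave 16.5 and 14.0 at 0.5 h, 19.2 and 57.5 at 1 h, 72.4 and 48.3 at 3 h, 64.9 and 62.3 at 6 h, 76.9 and 124 at 12 h, and 178 and 247 at 24 h in roots. The shoot arrays gave 0.424 and 4.89 at 0.5 h, 0.481 and 0.488 at 1 h, 61.3 and 83.4 at 3 h, 149 and 208 at 6 h, 547 and 329 at 12 h, and 886 and 544 at 24 h. It rose by 5.67 ± 0.36 in shoots (adjusted p = 1.4e-09). Its change over this interval was smaller in roots, at -4.34 ± 0.52 (adjusted p = 7.8e-06), and its root rise of 1.33 ± 0.36 (adjusted p = 0.011) was 0.70 without roots 1 h replicate 1 and 1.01 without roots 12 h replicate 2, where it did not pass.

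AT2G41190 gave 43.0 and 44.9 at 0.5 h, 129 and 245 at 1 h, 819 and 388 at 3 h, 657 and 481 at 6 h, 708 and 691 at 12 h, and 791 and 706 at 24 h in roots. Its shoot arrays gave 28.3 and 25.7 at 0.5 h, 38.1 and 43.1 at 1 h, 1129 and 1079 at 3 h, 2098 and 1832 at 6 h, 4191 and 3178 at 12 h, and 4550.5 and 3479.8 at 24 h. At 3 h both tissues stood above their arrays of 1 h, and from then on the root arrays lay between 388 and 819 while the shoot arrays went on to 4550.5. It rose by 1.92 ± 0.28 in roots (adjusted p = 0.00011) and by 6.24 ± 0.28 in shoots (adjusted p = 2.8e-11). Its change was smaller in roots, at -4.31 ± 0.40 (adjusted p = 6.5e-07). AT5G39520 gave 15.9 and 18.7 at 0.5 h, 29.8 and 21.5 at 1 h, 107 and 57.5 at 3 h, 119 and 110.4 at 6 h, 163 and 199 at 12 h, and 357 and 169.8 at 24 h in roots. In shoots it gave 17.3 and 18.2 at 0.5 h, 13.8 and 10.1 at 1 h, 106 and 92.5 at 3 h, 1192 and 1208 at 6 h, 1542 and 1693 at 12 h, and 2689 and 1931 at 24 h. The lower shoot array of 6 h had 11.2 times the signal of the higher one of 3 h. It rose by 2.49 ± 0.27 in roots (adjusted p = 6.9e-06) and by 6.36 ± 0.27 in shoots (adjusted p = 1.6e-11). Over this interval the change was smaller in roots, at -3.86 ± 0.39 (adjusted p = 1.4e-06).

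AT4G12580 gave 12.6 and 7.95 at 0.5 h, 11.1 and 9.46 at 1 h, 59.3 and 24.3 at 3 h, 108 and 105 at 6 h, 139 and 142 at 12 h, and 222 and 281 at 24 h in roots. The shoot signal was 3.58 and 0.313 at 0.5 h, 9.32 and 2.32 at 1 h, 21.1 and 20.5 at 3 h, 49.7 and 106 at 6 h, 643 and 467 at 12 h, and 531 and 434 at 24 h. The lower shoot array of 12 h had 4.41 times the signal of the higher one of 6 h. Its change between 1 h and 12 h, 3.02 ± 0.33 in roots and 5.38 ± 0.33 in shoots, was smaller in roots, at -2.35 ± 0.47 (adjusted p = 0.00094). AT5G22860 rose by 2.02 ± 0.28 in roots (adjusted p = 5.8e-05) and by 2.90 ± 0.28 in shoots (adjusted p = 1.5e-07), and its root signal went on to 435 and 288 at 24 h, against 108 and 91.9 at 12 h. AT1G52560 rose by 2.97 ± 0.37 in roots (adjusted p = 2.3e-05) and by 2.38 ± 0.37 in shoots (adjusted p = 3.4e-05), where its arrays did not exceed 4.97 up to 6 h.

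Of the remaining genes, 3 passed the test between 1 h and 12 h in neither tissue. AT2G34610 gave 0.701 and 0.582 at 0.5 h, 1.29 and 0.597 at 1 h, 0.592 and 0.413 at 3 h, 0.696 and 0.782 at 6 h, 1.52 and 1.496 at 12 h, and 55.9 and 15.6 at 24 h in shoots, at or below 1.52 on every array up to 12 h, and its difference between 1 h and 12 h was 0.76 ± 0.38 in roots and 0.09 ± 0.38 in shoots. AT2G16890 and AT3G05400 did not pass either, with differences of 0.79 ± 0.42 and 1.12 ± 0.50 in roots and 0.77 ± 0.42 and 0.55 ± 0.50 in shoots. AT3G20300, at the edge of the rule, rose by 2.11 ± 0.23 in shoots (adjusted p = 7.3e-07), had a root difference of 0.34 ± 0.23 (adjusted p = 0.29), and its change was smaller in roots, at -1.77 ± 0.33 (adjusted p = 0.0005). AT3G51750 rose by 0.95 ± 0.28 in shoots (adjusted p = 0.0098), a call lost without replicate 2 of shoots 1 h or replicate 1 of shoots 12 h, and had a root difference of 0.09 ± 0.28. AT3G04000, at the edge as well, rose by 1.82 ± 0.37 in roots (adjusted p = 0.0017) and by 1.98 ± 0.37 in shoots (adjusted p = 0.00026). AT4G23493 rose by nearly the same amount in both tissues, 2.35 ± 0.16 in roots and 2.13 ± 0.16 in shoots, as did AT2G19310, with 1.75 ± 0.24 and 1.90 ± 0.24. The other 13 genes, AT2G25625, AT5G37670, AT1G31750, AT4G23680, AT1G73040, AT1G02700, AT5G45310, AT5G23750, AT1G07040, AT1G14730, AT1G79520, AT3G57020 and AT5G51680, all passed in both tissues, with differences of 0.80 for AT5G51680 to 3.11 for AT5G37670 in roots and differences of 1.52 for AT3G57020 to 4.18 for AT2G25625 in shoots.

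The change between 1 h and 12 h was tested directly for a difference between the tissues. Limma called it larger in roots for 4 of the 52 genes, where 16.1% of all probe sets were called so, and smaller in roots for 22, where 15.6% were. The 4 were AT1G53540, AT2G29500, ATHSP22.0 and SWEET13. The median of the difference was -0.87 over the 52 genes and 0.00 over all probe sets. For 26 genes the difference was not called, and these are not thereby shown to change alike: for TMT2 the estimate was 0.07 ± 0.23 and for AT5G37670 0.27 ± 0.65. The calls held without each array in turn for 20 of the 26 called genes.

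The same difference was also tested for the interval from 1 h to 3 h and for that from 3 h to 12 h, 2 comparisons chosen after the data were seen, which share the arrays of 3 h. From 1 h to 3 h the change was called larger in roots for 8 genes, against 7.26% of all probe sets, and smaller for 5, against 7.51%. From 3 h to 12 h it was called larger in roots for 1, SWEET13, against 7.83%, and smaller for 24, against 7.21%, with a median of -1.22. The 24 were 12 without roots 3 h replicate 1 and 13 without shoots 12 h replicate 1, and the 8 were between 3 and 5 without each of 7 of the 8 arrays in turn, while the 5 became 10 without roots 3 h replicate 1. Without each array in turn, 7 of these 13 calls and 12 of these 25 held.

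**Figure D5:**
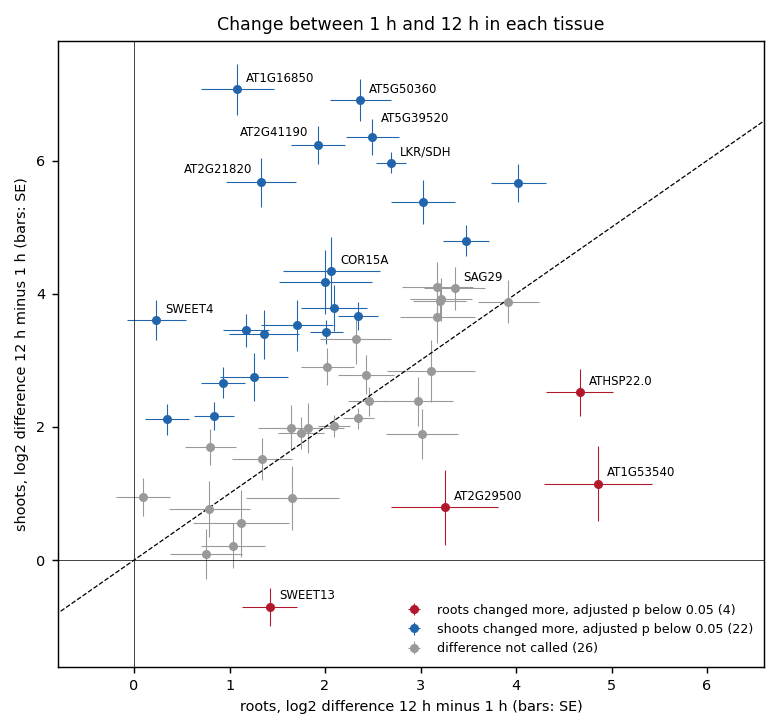
Log2 difference between 12 h and 1 h in roots (horizontal axis) and in shoots (vertical axis) for each of the 52 genes, with bars of 1 SE and a dashed line where both are equal. Colour marks the 4 genes whose change was called larger in roots, the 22 whose change was called larger in shoots and the 26 with no call; most points lie above the line.

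The level of the genes in the 2 tissues was compared as the mean of 1, 3, 6 and 12 h, 1 probe set at a time. Limma called 27 of the 52 genes higher in roots than in shoots, where 51.4% of all probe sets were called so, and 15 lower, where 28.6% were, so the shares were close to the background. The median was 0.38 over the 52 genes and 0.23 over all. Scaling each array to the same median moves the median of all probe sets by -0.18, and then 22 of the genes were called higher in roots and 19 lower. The order shifted with time. In sampling order from 0.5 h to 24 h, the root arrays had the higher mean for 33, 36, 32, 27, 21 and 19 genes. The counts of 0.5 h and 24 h rest on the arrays that chose the genes, and no such count was made over all probe sets. By single times limma called 26 genes higher in roots and 11 lower at 1 h, against 40.8% and 23.3% of all probe sets. At 12 h it called 17 higher and 21 lower, against 35.6% and 23.4%. The share of all probe sets called higher in roots was thus also smaller at 12 h than at 1 h. COR15A was lower in roots, at -4.94 ± 0.25 (adjusted p = 2.9e-12), AT2G25625 at -3.11 ± 0.24 and SWEET4 at -2.90 ± 0.15. AT1G14730 was higher in roots by 3.62 ± 0.19 (adjusted p = 4e-12), AT1G52560 by 3.21 ± 0.18 and AT2G34610 by 3.01 ± 0.19.

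Other genes of the pathways named above give the setting. As over the 52 genes, their calls between 1 h and 12 h stand against 13.5% of all probe sets called higher in roots, 23.8% higher in shoots and 15.6% with a change smaller in roots. On the list of genes induced by abscisic acid and dehydration 4 of 19 were tested, COR15A and, not among the 52, COR47, COR15B and LTI30. All 4 rose in shoots between 1 h and 12 h, and 1 of the 4, COR15A, in roots. The dehydrin gene LTI30 rose by 5.30 ± 0.46 in shoots, with a root signal that was already 2339.9 and 2821 on the arrays of 0.5 h. The change was called smaller in roots for all 4, with a median of -2.71. On the heat shock list 4 of 15 were tested, the 3 genes described above and AT5G48570. All 4 rose in roots, with a median of 3.96, while 1 rose in shoots, ATHSP22.0. The 3 are among the 52 and were chosen for a rise in both tissues, so only AT5G48570 adds a gene from outside. Its 24 h difference in roots, 1.88, lay just below the cutoff.

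Of the senescence and amino acid breakdown list 7 of 16 were tested, SAG29 and 6 others. In roots all 7 rose between 1 h and 12 h, against 13.5% of all probe sets, with a median of 1.34. In shoots 5 did, against 23.8%, with a median of 0.94. MCCA and MCCB, subunits of the enzyme that carries leucine breakdown forward, differed there by 0.49 ± 0.33 and 0.06 ± 0.25. IVD, which acts earlier in leucine breakdown, had a 24 h difference of 2.37 in roots and of 1.84 in shoots, below the cutoff. Of the compatible solute list APL3 and APL4, subunits of the enzyme that starts starch synthesis, were tested. Both rose in shoots and neither passed in roots. The change was smaller in roots for both, with a median of -3.31. The transcription factor STZ, the 1 gene tested of the 23 drought transcription factors, did not pass in either tissue. These lists were chosen with earlier results of these data known, and genes of the lists of abscisic acid signalling, abscisic acid synthesis and seed maturation were not analysed here.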

How the data were processed

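The arrays were Affymetrix GeneChips hybridised with biotin-labelled target made from total RNA, 1 sample per array. The authors deposited signal intensities per probe set, for which the submitters' processing notes name MAS5 with no version or scaling target. On the deposited values the mean after trimming 2% at each end was 100.007 to 100.01 on every array, so each had been scaled to a common level, and a change in total RNA per cell would not show. All 24 arrays were used as deposited. For arrays, their number limits the precision: 2 per group.

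Of 22810 probe sets, 64 controls were left out and 22746 remained. Counted over all 22810, 13513 named 1 gene, 503 several and 8794 none in the platform annotation. Of the 13513, 13436 matched the gene table of assembly TAIR10.1. The 52 genes and all gene lists were chosen with earlier results of these data known. Signals were taken as log2(signal + 8); a fold change on this scale understates the change of dim genes. Probe sets that exceeded the 40th percentile of an array on 2 or more arrays, 16814 in all, were fitted with limma 3.58.1 in R 4.3.3, with 12 group means, all 24 arrays and an intensity trend (12 residual degrees of freedom, median prior 5.29). The p-values were adjusted by Benjamini-Hochberg over all 16814, and a gene was called at an adjusted p below 0.05; errors are SE of the fitted log2 difference. There were 10 planned comparisons of 1, 3, 6 and 12 h, 2 added after seeing the data, and the tissue comparison at each of 4 single times. The script was tested on simulated data.

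Genes are named by rule: the 12 with the largest smaller 24 h difference, the 5 with the largest difference between the tissues each way, the 5 brightest, members of the gene lists, those called lower, and the 3 nearest the cutoff on each side. The other members were named after their values were seen. Alternatives were 1 or 32 added to the signal, no filter or the 60th percentile, quantile normalization, median scaling, the arrays of 1 tissue alone, the replicate number as a block, and leaving out each array in turn.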

Additional observations from a re-analysis of the deposited data

Results flagged for a closer look

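Of the 52 genes, 26 changed differently in roots and shoots between 1 h and 12 h by limma's test of the difference itself at an adjusted p below 0.05. The change was larger in roots for 4 of them (7.69% of the 52), against 16.1% of all probe sets. It was smaller in roots for 22 (42.3%), against 15.6%. The values are roots minus shoots on the log2(signal + 8) scale. The change was larger in roots for AT1G53540 at 3.71, AT2G29500 at 2.46, ATHSP22.0 at 2.15 and SWEET13 at 2.12. It was smaller in roots, with a value beyond -3, for AT1G16850 at -5.99, AT5G50360 at -4.54, AT2G21820 at -4.34, AT2G41190 at -4.31, AT5G39520 at -3.86, SWEET4 at -3.37 and AT4G33150 at -3.28. It lay between -3 and -2 for AT4G12580 at -2.35, AT5G45310 at -2.28, COR15A at -2.28, AT2G25625 at -2.17 and AT1G31750 at -2.02. The smallest called values were those of AT1G14730 at -1.82, AT3G20300 at -1.77, AT5G23750 at -1.73, AT1G73040 at -1.68, AT2G37870 at -1.64, AT1G02700 at -1.49, AT1G07040 at -1.41, AT1G79520 at -1.34, HIS1-3 at -1.32 and MGL at -1.32. Groups of 2 arrays are too small to look for a single array far from the others.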

How the results depend on the processing

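The number of genes the rule chooses was 23 with 32 added to the signal in place of 8, all 23 among the 52, and 29 when both 24 h arrays had to stand at least 2 above both 0.5 h arrays; leaving out single arrays of these times gave 46 to 55, an alternative chosen after seeing the data. Between 1 h and 12 h, 1 gene, SWEET13, was called lower in shoots with 32 added, with the stricter filter and with the replicate block. The 3 root calls from 3 h to 6 h became 0 with 1 added, 6 with 32 added, 1 without a filter, 5 with the stricter filter, 6 after quantile normalization, 1 after median scaling, 6 with the replicate block and 0 on root arrays alone, and 0 to 7 without single arrays. From 6 h to 12 h 1 gene was called higher in roots with 32 added. Leaving out single arrays gave 12 to 21 calls from 3 h to 6 h and 17 to 27 from 6 h to 12 h in shoots, and 19 to 27 from 1 h to 3 h in roots. The change from 1 h to 3 h was larger in roots for 5 genes with 32 added and for 4 without a filter or after median scaling, with 3 to 6 over single arrays left out, and smaller for 4 to 10. That from 3 h to 12 h was larger in roots for 2 with 32 added, and smaller for 12 to 25 over single arrays left out. The cause of these changes was not tested.

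No call changed its direction under any alternative run. Over all probe sets, median scaling gave 6855 higher and 6075 lower in roots than in shoots, against 8650 and 4815 as deposited, and from 1 h to 3 h in roots 905 higher and 623 lower, against 807 and 868. Same-numbered arrays did not deviate together in every pair of groups: over 15 pairs a tissue, their correlations were -0.0479 to 0.334 in roots, 6 of them over 0.1, and -0.165 to 0.349 in shoots, 5 over 0.1. Between roots and shoots of the same time they were -0.106 to 0.0415, 0 of 6 over 0.1. The number was therefore not used to pair arrays, and the replicate block, the number within each tissue, moved by over 1.5 times only the counts named with it above. With 2 arrays a group, a leave-one-out fit assumes that the lone array varies like the other groups. Signals near or below 8 units carry little information on the size of a change.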

Other observations

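The genes past the cutoff in 1 tissue alone were followed between 1 h and 12 h as well. Of the 288 that passed in shoots alone, limma called 273 higher in shoots (94.8%), with a median log2 difference of 2.14, and 99 higher in roots (34.4%), with a median of 0.39. Of the 52 that passed in roots alone, it called 49 higher in roots (94.2%), with a median of 1.81, and 23 higher in shoots (44.2%), with a median of 0.54. Over all 16814 probe sets the shares were 13.5% in roots and 23.8% in shoots. From 6 h to 12 h in shoots 112 of the 288 were called higher (38.9%). Of the 52 that passed in roots alone, 0 were (0%). Of the 52 genes that passed in both tissues, 30 were (57.7%), against 6.07% of all probe sets.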
